A study of Mus musculus with 5 samples.

Results

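Mitochondrial complex I, the NADH dehydrogenase of the respiratory chain, was followed through its nuclear genes in hearts of mouse embryos. The genes were taken by name: all array probe sets whose annotated symbol starts with Nduf, except Ndufa4 and Ndufa4l2, whose products are assigned to complex IV. This gave 42 of the 23279 named genes on the array. They were 6 core subunits, 27 accessory subunits, 8 assembly factors and 1 transcribed pseudogene, Ndufs5-ps. The accessory subunit genes Ndufb1, Ndufb4 and Ndufs5 and the subunits encoded in mitochondrial DNA carried no name among the probe sets and were not analysed here.

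Hearts were collected at the E10.5 stage, without treatment, from control embryos (3 arrays) and from embryos labelled KO (2 arrays). The series title names LRRFIP2 as the gene under study and the response to hypoxia in the developing heart as the question. The labels give neither the allele, the strain and the sex of the embryos, nor whether the controls were wild type or heterozygous. Whether a sample is a single heart or a pool is not stated either, so p-values measure only the spread between these 5 samples, which may be partly technical. Values are log2 expression levels made by RMA, an array method that corrects background, equalises the arrays' distributions and summarises the probes of each set. Differences are knockout minus control, and a difference of -0.30 is thus a lower level in the knockout hearts.

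Complex I takes electrons from NADH, passes them along flavin and iron-sulphur clusters to ubiquinone, and pumps protons across the inner mitochondrial membrane. It has a matrix arm, where the electrons travel, and a membrane arm, where the protons are pumped. Core subunits carry out this chemistry and are conserved from bacteria. Accessory subunits surround and stabilise the core, and assembly factors help to build the complex without staying in it. The early heart tube relies largely on glycolysis, and mitochondria mature and gain respiratory capacity as the heart develops.

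As a check of the labels, Lrrfip2 was read first. Its level was 7.33, 8.07 and 8.08 in control replicates 1, 2 and 3 and 6.36 and 6.22 in knockout replicates 1 and 2, without overlap (difference -1.54 ± 0.28, SE; adjusted p of 0.355 in limma). No source used here says which exons the allele lacks, and the probe set may lie outside them. Cardiomyocyte transcripts were read on every array: the mean level of 10 cardiomyocyte markers, among them Tnnt2, Myh6 and Nkx2-5, was 11.11 to 11.13 in controls and 11.16 and 10.98 in knockout replicates 1 and 2, and 0 of them were dim. Both knockout arrays stood apart from the controls in other ways. The mean of 12 liver and gut endoderm markers was 7.95 in knockout replicate 2 against 4.54 to 4.66 elsewhere, with Afp at 11.42 there and at 3.86 to 4.07 on the other arrays. In knockout replicate 1, the mean of 10 macrophage markers was 5.46 against 4.81 to 4.89 elsewhere, although 4 of them, Adgre1 and Ptprc included, were dim overall. The mean of 10 endothelial markers was 8.18 and 7.80 in knockout replicates 1 and 2, against 7.69 to 7.89 in controls. On both knockout arrays 3 of them (Pecam1, Cdh5 and Kdr) were above all controls and 1 (Nfatc1) below. Among all genes tested, 8.18% were above and 13.1% below in this way. The mean of 10 cushion and epicardial markers was 7.51 and 7.96 in knockout replicates 1 and 2, against 7.63 to 8.02 in controls. The mean of 9 erythroid markers ranged from 7.49 to 9.06 among controls and was 7.48 and 7.67 in the knockouts. The part of these differences in the results on complex I was not tested. In bulk tissue, fewer cells of a type and less RNA per cell cannot be told apart.

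Most complex I genes had slightly lower levels in the knockout hearts. Of the 42 genes, 37 had a lower mean in the knockout and 5 a higher one; among all 13967 genes tested, 54.5% had a lower and 43.9% a higher mean. The median difference was -0.19, against -0.02 over all genes tested. Every one of the 42 passed the filter on dim genes, which required a mean level of at least 4.44. In the limma model over all genes, 0 of the 42 passed an adjusted p of 0.05, as did 0 of all genes tested (0%), and the smallest adjusted p among complex I genes was 0.355. An unadjusted p under 0.05 was reached by 14 complex I genes, each with a lower level. Among all genes tested, 8.78% reached that threshold, 5.49% with lower and 3.29% with higher levels. For 18 complex I genes both knockout arrays lay below all controls, where 13.1% of all genes did so. For 0 complex I genes did both lie above, where 8.18% of all genes did.

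These counts moved when a control array was left out. Without control replicate 2, the highest of the 3 controls for 25 of the 42 genes, 7 genes were at an unadjusted p under 0.05, and without control replicate 1 there were 9. All of those were also among the 14. The share of all genes with lower levels at that threshold also dropped in these smaller fits, to 3.39% and 3.19%. Without control replicate 3 there were 13 complex I genes, 9 of them among the 14, and the share of all genes was 4.87%. The part of the smaller number of arrays in these changes was not tested. Without knockout replicate 2, the array with endoderm transcripts, the median difference was -0.14, and without knockout replicate 1 it was -0.26. Where a knockout array is left out, the spread of the remaining one is borrowed from the controls. Counts at that threshold are therefore not given here for those fits.

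**Figure D1:**
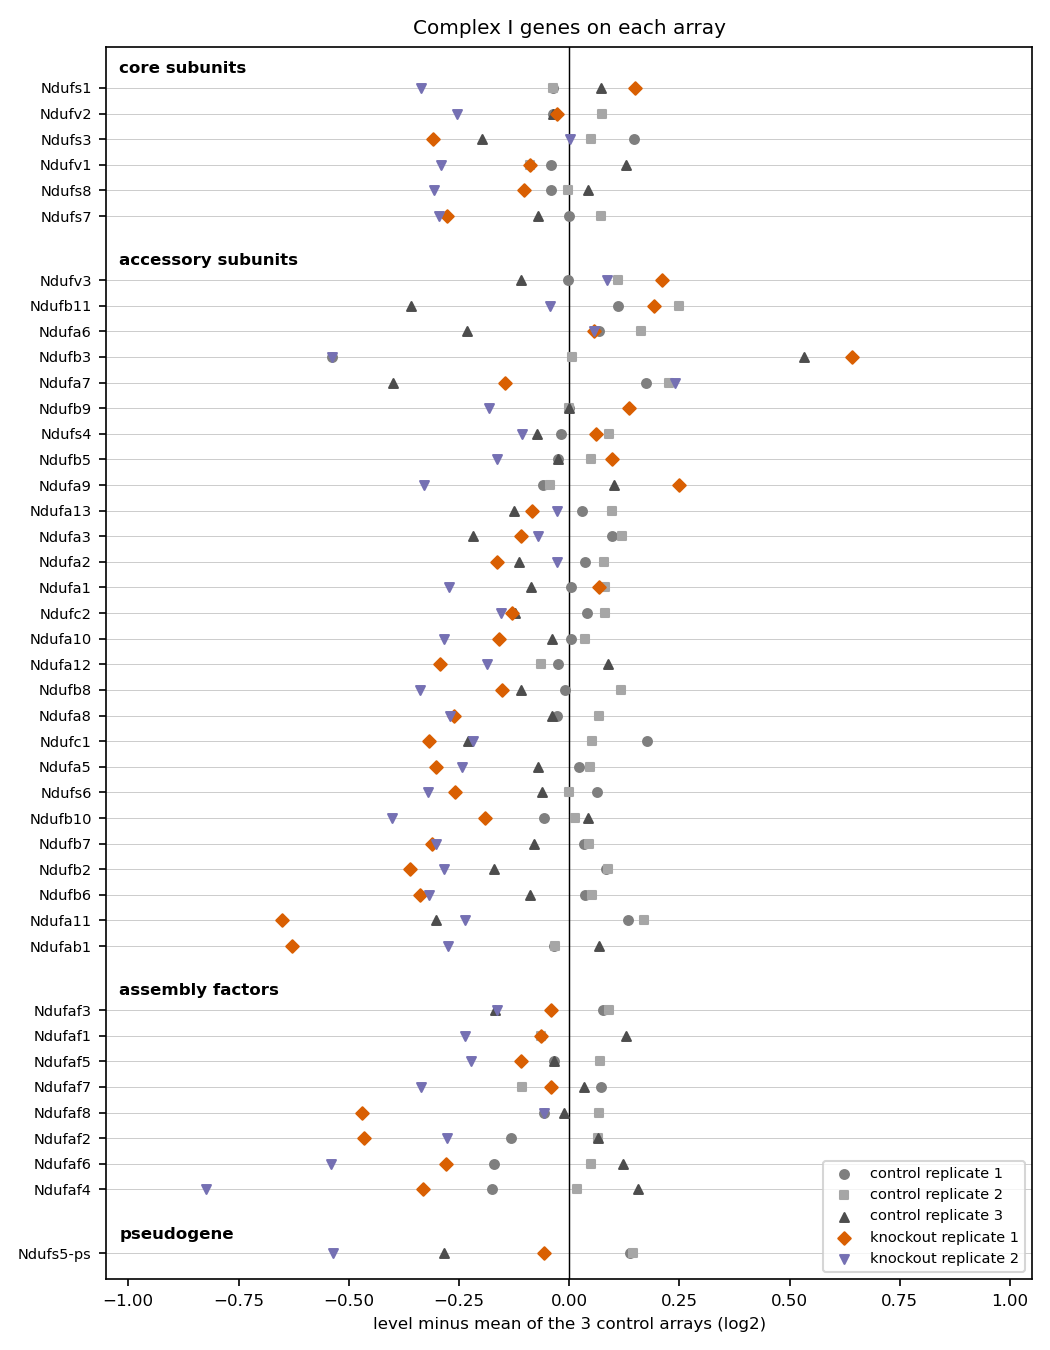
Level of each of the 42 complex I genes on each of the 5 arrays, as the log2 difference from the mean of the 3 control arrays, with genes grouped by class and ordered by their mean difference. Grey symbols are control arrays and coloured symbols knockout arrays; in 18 genes both knockout symbols lie left of all grey ones, and in 0 genes do both lie right of them.

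Regions in front of the genes are shown for 5 of the 14 genes with an unadjusted p under 0.05. These 5 were picked because each holds a motif of a factor known to drive respiratory genes. Windows from 250 bases before to 50 bases after the start were taken from RefSeq (GRCm38.p6) and were found for 37 of the 42 genes. Capitals mark matches, on either strand, to CGCANGCG (the core of the site of nuclear respiratory factor 1), CCGGAAG (the ETS factors, GABP among them) or AAGATGGC (YY1). The windows of Ndufa10, Ndufab1 and Ndufb2, also among the 14 genes, held none of these letters. The windows are those of Ndufb7 (chr8:83566508-83566807, plus strand), Ndufa8 (chr2:36049289-36049588, minus strand), Ndufs6 (chr13:73328433-73328732, minus strand), Ndufs7 (chr10:80249199-80249498, plus strand) and Ndufaf4 (chr4:24897833-24898132, plus strand).
Ndufb7: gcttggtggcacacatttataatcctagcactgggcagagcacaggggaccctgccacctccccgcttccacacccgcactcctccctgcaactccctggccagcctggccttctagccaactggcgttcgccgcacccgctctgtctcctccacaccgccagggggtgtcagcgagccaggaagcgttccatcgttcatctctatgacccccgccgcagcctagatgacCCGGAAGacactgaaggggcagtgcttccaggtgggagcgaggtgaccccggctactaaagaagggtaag
Ndufa8: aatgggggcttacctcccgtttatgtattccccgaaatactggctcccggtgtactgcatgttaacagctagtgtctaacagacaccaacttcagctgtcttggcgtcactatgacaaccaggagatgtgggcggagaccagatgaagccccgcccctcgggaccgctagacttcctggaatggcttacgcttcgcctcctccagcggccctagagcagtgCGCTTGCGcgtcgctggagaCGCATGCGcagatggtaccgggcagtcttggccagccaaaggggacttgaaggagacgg
Ndufs6: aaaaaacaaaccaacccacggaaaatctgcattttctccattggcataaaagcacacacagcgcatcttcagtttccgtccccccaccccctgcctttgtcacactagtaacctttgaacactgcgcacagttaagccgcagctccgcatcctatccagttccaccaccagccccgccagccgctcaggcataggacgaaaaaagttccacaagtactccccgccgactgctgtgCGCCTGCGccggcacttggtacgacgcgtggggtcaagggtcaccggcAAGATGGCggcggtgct
Ndufs7: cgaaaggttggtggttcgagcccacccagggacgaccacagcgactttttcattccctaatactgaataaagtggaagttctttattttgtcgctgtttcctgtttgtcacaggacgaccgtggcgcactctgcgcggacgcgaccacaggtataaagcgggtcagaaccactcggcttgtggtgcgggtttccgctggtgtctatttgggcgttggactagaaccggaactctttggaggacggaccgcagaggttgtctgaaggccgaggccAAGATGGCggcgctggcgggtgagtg
Ndufaf4: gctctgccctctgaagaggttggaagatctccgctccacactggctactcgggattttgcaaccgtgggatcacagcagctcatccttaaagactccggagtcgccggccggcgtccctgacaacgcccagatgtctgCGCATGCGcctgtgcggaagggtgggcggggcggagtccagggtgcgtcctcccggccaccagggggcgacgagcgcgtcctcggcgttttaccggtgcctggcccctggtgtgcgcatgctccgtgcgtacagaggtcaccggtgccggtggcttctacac

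The first base of the nuclear respiratory factor 1 match lay 29 bases before the start in Ndufa8, with another 9 before it, 15 before it in Ndufs6 and 112 before it in Ndufaf4. The YY1 letters began 34 bases into the transcript of Ndufs6 and 25 bases into that of Ndufs7. The ETS letters began 20 bases before the start of Ndufb7. Over the complex I genes with a window, 11 of 37 (29.7%) held the nuclear respiratory factor 1 letters, against 9.22% of all 27025 genes with windows of this length. The longer form with a G before and a C after these letters was in 7 (18.9%), against 5.19%. The YY1 letters were in 8 (21.6%), against 3.19%, and the ETS letters in 6 (16.2%), against 9.93%. The core letters of the hypoxia response element were searched as ACGTG and GCGTG on both strands. They were in 7 (18.9%, against 21.8% of all genes) and in 19 (51.4%, against 35.2%). The TATA box letters TATAAA were in 4 (10.8%, against 15.7%). The complex I windows had a median GC content of 59.3%, against 52.7% over all windows, and the part of base composition in these shares was not tested. The 27025 genes were not limited to the 13967 that passed the filter on dim genes, which every complex I gene passed. The part of that in the shares was not tested either. Windows were found for 13 genes with an unadjusted p under 0.05. Of these, 7 held the nuclear respiratory factor 1 letters, 4 their longer form, 2 the YY1 letters and 2 the ETS letters. ACGTG was in 1 of them, GCGTG in 4 and TATAAA in 2. Of the other 24 genes, 4, 3, 6, 4, 6, 15 and 2 held them, in the same order. The short form of the nuclear respiratory factor 1 letters was chosen after the longer one had been counted. Differences between these sets of genes were not tested. Such matches are descriptions of the windows, not evidence of binding.

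All 6 measured core subunit genes had a lower mean in the knockout, with a median difference of -0.17, but 1 of them, Ndufs7, had an unadjusted p under 0.05. Among all genes tested, 5.49% reached that threshold with a lower level. Knockout replicate 2 lay below all controls in 5 of the 6 (28.2% of all genes) and knockout replicate 1 in 3 (33.9%). The median rested unequally on the knockout arrays: it was -0.29 without knockout replicate 1 and -0.09 without knockout replicate 2.

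Ndufs7 carries the last iron-sulphur cluster of the chain, which hands electrons to ubiquinone. Its level was 10.03, 10.11 and 9.96 in control replicates 1 to 3 and 9.76 and 9.74 in the knockouts. Both knockout values lay below all controls and close to each other, a 1.22-fold lower level (-0.29 ± 0.06, SE; unadjusted p of 0.00631 and adjusted p of 0.364 in limma). Ndufs8, which holds iron-sulphur clusters on the same path, was at 8.79, 8.83 and 8.87 in controls and at 8.73 and 8.52 in the knockouts. Here too the groups did not overlap, but knockout replicate 1 stood just under the lowest control (-0.20 ± 0.08, adjusted p of 0.57 in limma).

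Ndufv1 binds NADH and the flavin at the tip of the matrix arm, and Ndufv2 is its iron-sulphur partner there. Ndufv1 was at 8.75, 8.71 and 8.92 in controls and at 8.71 and 8.51 in the knockouts. Knockout replicate 1 and control replicate 2 held the same value, an exact tie. Ndufv2 was at 9.55, 9.66 and 9.55 in controls and at 9.56 and 9.33 in the knockouts, with knockout replicate 2 alone below the controls. The differences were -0.19 ± 0.10 and -0.14 ± 0.09 (SE). Ndufs1, the largest subunit, which holds several iron-sulphur clusters, went opposite ways in the knockout arrays. It was at 9.21, 9.21 and 9.32 in controls, at 9.39 in knockout replicate 1, above all of them, and at 8.91 in knockout replicate 2, below all of them. Its mean difference of -0.09 ± 0.16 therefore describes neither array, and it was 0.15 without knockout replicate 2. Ndufs3, a subunit near the ubiquinone site, lay nearest to the dim limit. It was at 5.46, 5.36 and 5.11 in controls and at 4.999 and 5.31 in the knockouts, with the groups overlapping.

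Of the 27 accessory subunit genes, 22 had a lower mean in the knockout and 5 a higher one, with a median difference of -0.14. An unadjusted p under 0.05 was found for 10, each of them lower, and 12 had both knockout arrays below all controls. The same held for 5.49% and 13.1% of all genes tested. Without knockout replicate 1 the median was -0.24, and without knockout replicate 2 it was -0.15.

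The smallest p-values of all complex I genes were those of 4 accessory subunits, each with a small shift and close replicates. Ndufb7, a subunit of the outer part of the membrane arm, was at 11.01, 11.02 and 10.89 in controls and at 10.66 and 10.67 in the knockouts. Its replicates were tight in both groups (-0.31 ± 0.05, SE; 1.24-fold lower; unadjusted p of 0.00446 and adjusted p of 0.355 in limma). Ndufb6, of the same region, was at 10.17, 10.19 and 10.04 in controls and at 9.79 and 9.82 in the knockouts (-0.33 ± 0.06, 1.26-fold lower). Ndufa8, at the inner end of the membrane arm, was at 9.33, 9.43 and 9.32 in controls and at 9.10 and 9.09 in the knockouts (-0.27 ± 0.05). Ndufs6, a zinc-binding subunit of the matrix arm, was at 11.74, 11.68 and 11.62 in controls and at 11.42 and 11.36 in the knockouts (-0.29 ± 0.05). In each of these 4 genes the gap between the groups was wider than the range within either.

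Further matrix arm subunits behaved alike in both knockout arrays. Ndufa5 was at 10.25, 10.28 and 10.16 in controls and at 9.93 and 9.99 in the knockouts (-0.27 ± 0.05, SE). Ndufa12, which sits late in assembly where the factor Ndufaf2 had been, was at 11.66, 11.62 and 11.77 in controls and at 11.39 and 11.49 in the knockouts (-0.24 ± 0.07). Both genes had an unadjusted p under 0.05 and no overlap.

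Among membrane arm subunits, Ndufa10, which has the fold of a nucleoside kinase, was at 10.28, 10.31 and 10.24 in controls and at 10.12 and 9.99 in the knockouts (-0.22 ± 0.06, SE). Ndufb10 was at 10.68, 10.75 and 10.78 in controls and at 10.55 and 10.34 in the knockouts (-0.30 ± 0.08). Ndufb2 was at 10.39, 10.40 and 10.14 in controls and at 9.95 and 10.02 in the knockouts (-0.32 ± 0.10). The knockout values lay below all controls in these 3 genes, by the narrowest margin in Ndufb2, where control replicate 3 was also low. Ndufa8, Ndufb7 and Ndufb10 belong to the small proteins with paired cysteine motifs that are folded in the intermembrane space by the oxidoreductase Chchd4. Chchd4 itself was at 7.49, 7.53 and 7.52 in controls and at 7.29 and 7.35 in the knockouts, again without overlap (-0.20 ± 0.04, adjusted p of 0.364 in limma).

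Ndufab1, the mitochondrial acyl carrier protein, also serves lipoate and iron-sulphur cluster synthesis outside complex I. It had the largest difference of any subunit gene. Its level was 7.43, 7.43 and 7.53 in controls and 6.83 and 7.19 in the knockouts, a 1.37-fold lower mean (-0.45 ± 0.12, SE; adjusted p of 0.483 in limma). The knockout arrays differed more from each other than the controls did, with the lower value in knockout replicate 1. Without knockout replicate 2 the difference was -0.63 with an adjusted p of 0.0484 in limma, a value that takes the single knockout array to vary like the controls. Ndufa11 differed by nearly as much (-0.44 ± 0.22) but was at 7.03, 7.07 and 6.59 in controls and at 6.25 and 6.66 in the knockouts, with the groups overlapping through a low control replicate 3. It is a membrane arm subunit that also touches complex III in respiratory supercomplexes.

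Ndufv3, a small subunit at the tip of the matrix arm known for isoforms made by alternative splicing, was the gene with the highest difference. It was at 9.35, 9.47 and 9.25 in controls and at 9.57 and 9.44 in the knockouts (0.15 ± 0.09, SE; unadjusted p of 0.162 and adjusted p of 0.57 in limma). Knockout replicate 1 lay above all controls and knockout replicate 2 within their range. The difference stayed between 0.09 and 0.21 in all alternatives run. The other genes with a higher mean were Ndufb11 (0.07), Ndufa6 (0.06), Ndufb3 (0.05) and Ndufa7 (0.05), each with an unadjusted p of at least 0.701. For Ndufb11, Ndufa7 and Ndufb3 the sign turned under some of the alternatives.

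Ndufb3, Ndufa7 and Ndufb11 also had the widest ranges among controls. Ndufb3 was at 6.98, 7.52 and 8.05 in controls and at 8.16 and 6.98 in the knockouts, so its knockout arrays spanned about the same range as the controls. Ndufa7 was at 8.70, 8.75 and 8.12 in controls and at 8.38 and 8.76 in the knockouts. Ndufb11, which is on the X chromosome, was at 6.96, 7.09 and 6.49 in controls and at 7.04 and 6.80 in the knockouts. The control range was above 0.5 in these 3 genes and had a median of 0.19 over all 42, so differences of the size seen in the other genes lie within the spread of their controls.

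The remaining accessory genes showed small or inconstant differences. Ndufb8 (-0.25) and Ndufc2 (-0.14) had no overlap but an unadjusted p of 0.0668 and 0.132, and Ndufc1 (-0.27) overlapped. Ndufa2 (-0.10), Ndufa3 (-0.09), Ndufa13 (-0.06) and the X-linked Ndufa1 (-0.10) overlapped too. Ndufs4, whose loss causes a Leigh-like disease in mice, was at -0.02, Ndufb5 at -0.03, Ndufb9 at -0.02 and Ndufa9, at the joint between the arms, at -0.04. In Ndufb5, Ndufb9 and Ndufa9, as in Ndufs1, knockout replicate 1 lay above all controls and knockout replicate 2 below all of them. With Ndufb3, whose knockout replicate 2 fell short of the lowest control by a negligible margin, this made 5 of the 42 genes, where 5.94% of all genes tested did the same. A mean near 0 in these genes thus came from arrays on opposite sides of the controls. In Ndufb9 the 3 controls held the same value (10.57), so any knockout value that differed from it lay outside all controls.

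By place in the complex, 12 of 15 matrix arm genes had a lower mean in the knockout (median -0.14), as did 8 of 8 genes of the inner membrane arm (-0.18) and 7 of 9 of the outer membrane arm (-0.25). Of these, 4, 2 and 4 genes had an unadjusted p under 0.05, each with a lower level, as did 5.49% of all genes tested. Differences between these parts were not tested.

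**Figure D2:**
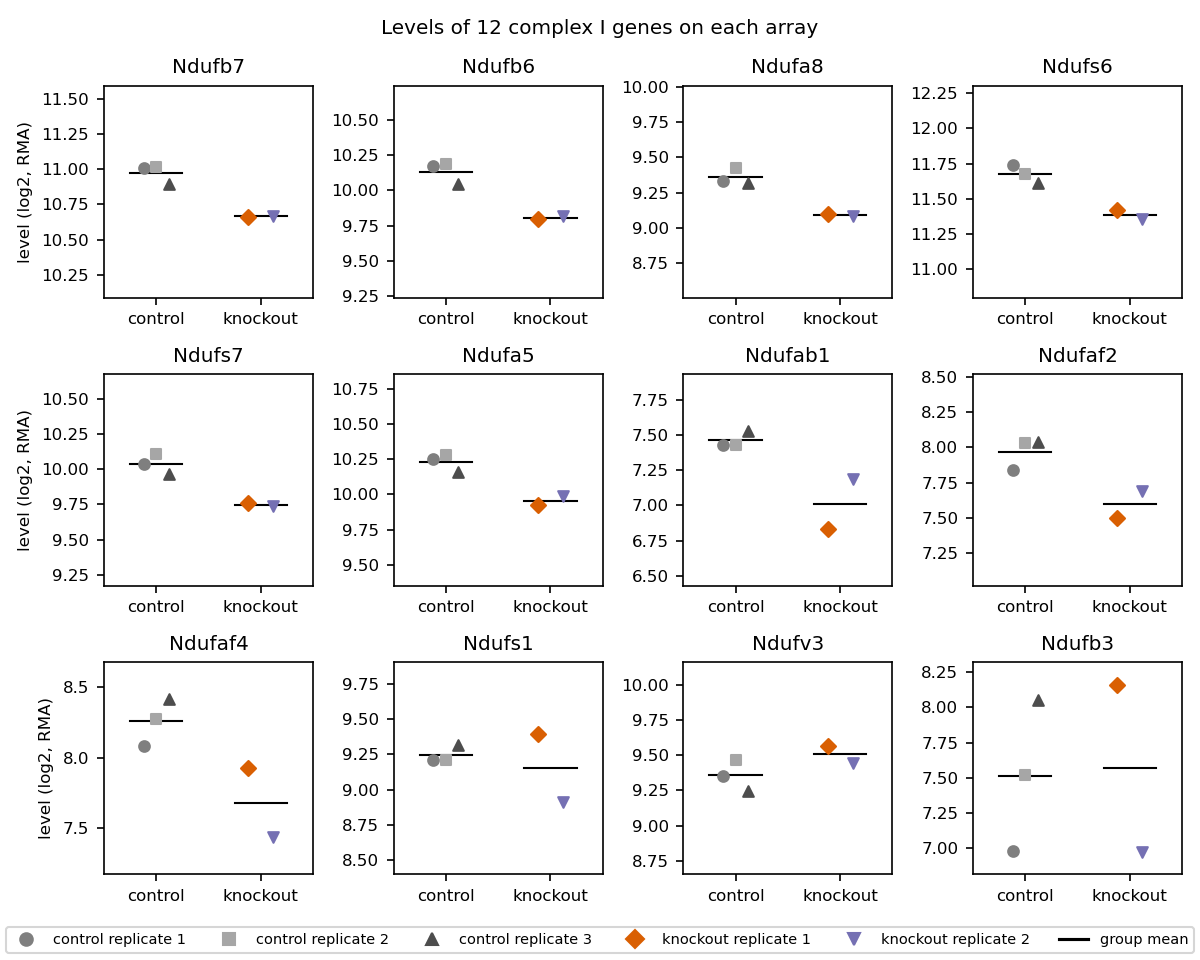
Log2 RMA levels of 12 complex I genes on the 3 control and 2 knockout arrays, with black lines at the group means and every panel spanning the same height on its axis. The knockout arrays lie below all controls from Ndufb7 to Ndufaf4, with knockout replicates together in Ndufb7 (10.66 and 10.67) and apart in Ndufaf4 (7.93 and 7.44), while Ndufs1, Ndufv3 and Ndufb3 show overlap.

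All 8 assembly factor genes had a lower mean in the knockout, with a median difference of -0.23. In 3, the unadjusted p was under 0.05, and in 4 the groups did not overlap. With a lower level in the knockout, the same held for 5.49% and 13.1% of all genes tested. The median was -0.26 without knockout replicate 1 and -0.19 without knockout replicate 2.

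Ndufaf4, which with Ndufaf3 binds the early ubiquinone-side intermediate, had the largest difference of the 42 genes and was the only one beyond 0.5. It was at 8.08, 8.28 and 8.42 in controls and at 7.93 and 7.44 in the knockouts. Knockout replicate 2 was much the lower, and knockout replicate 1 lay closer to the lowest control than to it (-0.58 ± 0.19, SE; 1.49-fold lower; unadjusted p of 0.0397 and adjusted p of 0.543 in limma). Its partner Ndufaf3 was at 7.33, 7.34 and 7.08 in controls and at 7.21 and 7.08 in the knockouts, with overlap (-0.10 ± 0.11).

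Ndufaf2 holds the place of Ndufa12 in the late intermediate. It was at 7.84, 8.03 and 8.03 in controls and at 7.50 and 7.69 in the knockouts, below all controls on both arrays (-0.37 ± 0.10, SE; adjusted p of 0.473 in limma). Ndufaf6, needed for the membrane part around the mitochondrially encoded ND1, was at 7.13, 7.35 and 7.42 in controls and at 7.02 and 6.76 in the knockouts (-0.41 ± 0.13). Ndufaf5, which hydroxylates an arginine of Ndufs7, was at 7.99, 8.09 and 7.99 in controls and at 7.91 and 7.80 in the knockouts (-0.17 ± 0.06). These 3 genes shared the absence of overlap, and Ndufaf5 missed an unadjusted p of 0.05 (0.0529).

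Ndufaf8, the partner of Ndufaf5, was at 7.67, 7.79 and 7.71 in controls and at 7.26 in knockout replicate 1, but at 7.67 in knockout replicate 2, level with control replicate 1. Ndufaf7, a methyltransferase, differed by -0.19 ± 0.12 and Ndufaf1, which joins the membrane arm assembly complex, by -0.15 ± 0.10 (SE), both with overlap. Assembly genes with other names were read from a separate list that includes the partners of Ndufaf1 (Ecsit, Acad9 and Tmem126b). Of 14 tested, 12 had a lower mean, with a median difference of -0.20. Lower levels with an unadjusted p under 0.05 were found for 2, Chchd4 and Tmem70 (-0.31 ± 0.10), and for 5.49% of all genes tested. Of these 14 genes, 7 had both knockout arrays below all controls and 1 had both above, against 13.1% and 8.18% of all genes.

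Ndufs5-ps is a transcribed pseudogene of Ndufs5, and its probes may also read transcripts of near-identical sequence. It was at 8.21, 8.22 and 7.79 in controls and at 8.01 and 7.53 in the knockouts, with overlap (-0.30 ± 0.22, SE).

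The knockout arrays were then set against each other, gene by gene. In 30 of the 42 genes both lay below the control mean, in 8 knockout replicate 1 lay above it and knockout replicate 2 below, in 2 (Ndufa7 and Ndufs3) the reverse was found, and in 2 (Ndufv3 and Ndufa6) both lay above. Knockout replicate 1 lay below all controls in 23 genes, against 33.9% of all genes tested, and above all of them in 6, against 26.6%. Knockout replicate 2 did so in 30 genes (28.2% of all genes) and 1 gene (21.6%). The median shift from the control mean was -0.14 for knockout replicate 1 and -0.26 for knockout replicate 2, and it was 0.06 in control replicate 2, -0.07 in control replicate 3 and near 0 in control replicate 1. The array with the larger shift, knockout replicate 2, was also the one with endoderm transcripts and the lower cardiomyocyte markers (median shift -0.18). In knockout replicate 1 the cardiomyocyte markers had a median shift of 0.05, with 4 of the 10 below all controls and 5 above. In knockout replicate 2, 8 of them were below all controls and 1 above. The part of cell composition in the complex I shifts was not tested.

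**Figure D3:**
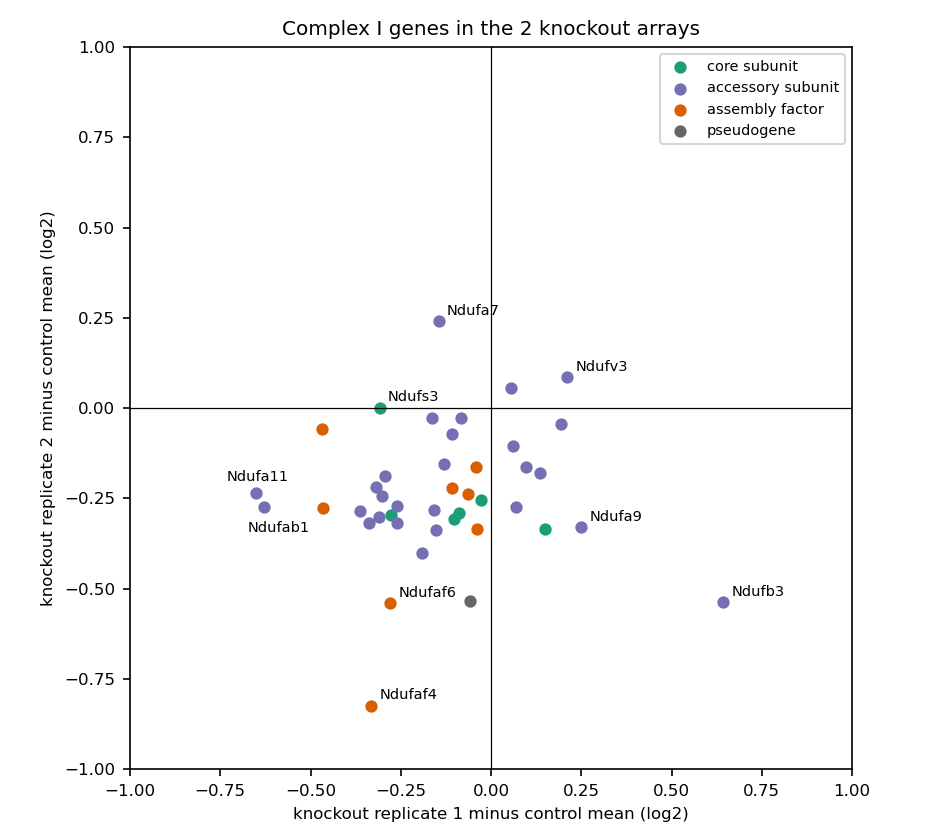
Log2 difference from the control mean in knockout replicate 1 (horizontal axis) and knockout replicate 2 (vertical axis) for the 42 complex I genes, coloured by class; both differences use the same control mean, so the axes are not independent. In 30 genes both values are negative, and Ndufb3 and Ndufa9 are among the 8 with opposite signs at the lower right.

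The other respiratory complexes were read the same way, to see whether complex I stood apart. The lists for complexes II, III, IV and V held 8, 9, 13 and 17 genes, and those not found by name on the array were left out. A lower mean in the knockout was found in 8 of 8 genes of complex II and its assembly (median difference -0.23), 8 of 8 of complex III (-0.22), 10 of 12 of complex IV (-0.12) and 10 of 10 of complex V (-0.13). In turn, 4, 4, 1 and 4 of these genes had an unadjusted p under 0.05, each with a lower level, as did 5.49% of all genes tested. With the smallest p in each, Sdhc differed by -0.12, Uqcr10 by -0.16, Cox6a1 by -0.19 and Atp5o by -0.38. The complex I median of -0.19 lay within the range of these medians. The difference between the complexes was not tested, and all of these comparisons share the same 5 arrays.

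Regulators of mitochondrial gene expression went both ways. Of 11 tested genes, among them Ppargc1a, Nrf1, Gabpa, Esrra and Tfam, 6 had a lower and 5 a higher mean, with a median of -0.03. An unadjusted p under 0.05 was reached by 0 of them, against 8.78% of all genes tested. Of 10 genes that link hypoxia to respiration, 8 had higher levels without overlap (8.18% of all genes tested) and 2, Iscu (-0.24) and Ndufa4, lower levels without overlap (13.1% of all genes). The 8 include Ndufa4l2, the mitophagy receptor Bnip3 (1.26 ± 0.14, SE), the Myc antagonist Mxi1 (0.94 ± 0.19) and the pyruvate dehydrogenase kinase Pdk1 (0.78 ± 0.14). The adjusted p-values of these 4 genes in limma were 0.333 to 0.367. Ndufa4l2 and Ndufa4, left out of the complex I genes above, were not alike. Ndufa4l2 was at 5.47, 5.56 and 4.93 in controls and at 8.33 and 7.67 in the knockouts (2.68 ± 0.30), and Ndufa4 at 11.08, 11.15 and 11.06 in controls and at 11.06 and 10.98 in the knockouts (-0.08 ± 0.05).

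**Figure D4:**
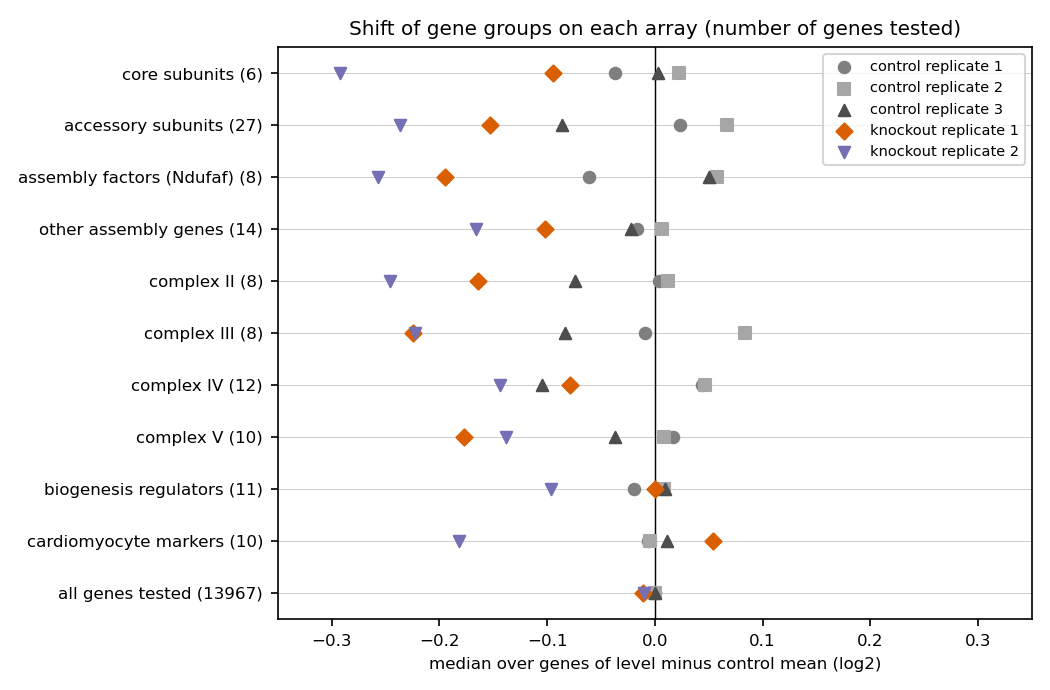
Median over the genes of each group of the log2 level minus the control mean, on each of the 5 arrays, with the number of genes tested in brackets. Core subunits, accessory subunits and assembly factors lie to the left in both knockout arrays (-0.29 to -0.09), as do complexes II to V, while cardiomyocyte markers do so in knockout replicate 2 (-0.18) and not in knockout replicate 1 (0.05).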

How the data were processed

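Expression was measured on Affymetrix arrays in 5 samples of embryonic mouse heart. The log2 values were deposited by the authors as 1 table. The submitters' processing notes name Affymetrix Expression Console and RMA; versions and settings: not given in the sources used here. Of 24479 probe sets, the platform annotation names 1 gene for 23281, several for 0 and none for 1198. Current symbols came from RefSeq (GRCm38.p6), in which 23156 of the named sets were found. The brightest probe set of a gene was kept (23279 genes), and genes with a mean under the 40th percentile, 4.44, were left untested, which left 13967.

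Knockout was compared with control by the lmFit and eBayes functions of limma 3.58.1 under R 4.3.3, two-sided and with no covariate, with Benjamini-Hochberg adjustment over all genes tested and a threshold of 0.05. Array medians lay between 5.07 and 5.11, and correlations between arrays were 0.986 to 0.996. Precision is limited by the number of arrays. The steps were tested on simulated data. Exact ties occur in the deposited values: values repeated between arrays in 9 of the 42 complex I genes and in 54.8% of all genes tested. The fixed rule gave values on each array for the core subunits, the 10 genes with the smallest p, genes with a higher mean in knockout and p under 0.2, the 3 nearest the dim limit and the 3 with the widest control range. It took up to 4 genes per other list with p under 0.05. Other genes shown with array values (Ndufa12, Ndufb2 and assembly factors) and the genes with windows shown were chosen after their values were seen, and the short form of the nuclear respiratory factor 1 motif after the longer one had been counted. Members and lists were chosen with earlier results of these data known. Alternatives concerned the dim filter, the variance prior, array weights, normalization, centring, probe sets, unnamed sets, and leaving out each array.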

Additional observations from a re-analysis of the deposited data

How the results depend on the processing

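The results above were recomputed under 13 alternatives. The count of genes past the adjusted threshold over all genes was 0 in the limma fit (1227 at an unadjusted p under 0.05) and 0 to 983 when an array was left out, with 9 without knockout replicate 1 and 983 without knockout replicate 2. The count of complex I genes at an unadjusted p under 0.05 was 14, and 7 to 19 when an array was left out. The count of complex I genes with a lower mean ranged from 32 to 39 when any array was left out. The median difference of core subunits was -0.293 to -0.0949 when an array was left out, and no class median changed sign under any alternative run. With array weights 10 complex I genes, and after quantile normalization again 12, were at an unadjusted p under 0.05, each with a lower level. The share of all genes tested with lower levels at that threshold was 3.37% and 4.85% in these 2 fits. The median of all 42 genes was -0.19 and -0.17.

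Signs of single genes turned as follows, and the cause was not tested. With array weights Ndufb11 was at -0.0402 and Ndufa7 at -0.0823. When an array was left out, Ndufb3 ranged from -0.54 to 0.64, Ndufb11 from -0.11 to 0.20, Ndufa7 from -0.15 to 0.24, Ndufs1 from -0.34 to 0.15 and Ndufs3 from -0.31 to 0.0012. The value of Ndufs3 is positive without knockout replicate 1. Of the 260 recomputed values of single named genes, 10 changed sign. No paired analysis was possible because the labels give the groups no shared replicate numbers. No raw scanner values were used, so signal over background limits what can be said of genes near the dim limit, Ndufs3 above all.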
